A study of Mus musculus with 9 samples.

Results

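Genomic imprinting leaves a gene active on a single parental copy, and imprinted genes lie in clusters that share control regions. Many of them set the growth of the embryo, and several are abundant in the developing brain. Some imprinted transcripts are also microRNA hosts: the hairpin of a microRNA is cut from the host transcript in the nucleus, and Dicer then removes the loop of the hairpin in the cytoplasm to give the mature microRNA.

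The genes described here are 9 imprinted genes among the 12188 genes of an expression table from the dorsal telencephalon of mouse embryos. They were chosen by a list of Ensembl identifiers that pairs each with its symbol, and all 9 were present. They are H19 (ENSMUSG00000000031_at), Igf2 (ENSMUSG00000048583_at), Dlk1 (ENSMUSG00000040856_at), Meg3 (ENSMUSG00000021268_at), Grb10 (ENSMUSG00000020176_at), Ndn (ENSMUSG00000033585_at), Plagl1 (ENSMUSG00000019817_at), Mest (ENSMUSG00000051855_at) and Peg3 (ENSMUSG00000002265_at). The list sets no condition on measured values, but it was drawn up with earlier results of these data known.

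The study compared conditional Dicer knockouts, described as depleted of microRNAs, with controls that were not. All embryos were of strain C57Bl6/J at E13.5 (days of embryonic development), and 1 Affymetrix array was hybridised per embryo. The 5 knockout embryos (replicates 5, 7, 9, 10 and 11) were all labelled male. Of the 4 controls, replicates 1 and 2 were labelled female and replicates 3 and 4 male. The titles of the controls begin with HTZ, which the labels do not expand, so the controls are not taken to be wild type. Some of the embryos were littermates, per the design text. The sources used here do not say which ones, nor do they name the Cre driver or the Dicer allele.

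The values were log2 expression as deposited, with array medians between 7.61 and 7.75, and no background call came with them. The number of arrays limits the precision. Control 4 stood apart: its root mean square deviation from the mean of the other controls was 0.397 log2 units over all genes, against 0.177 to 0.215 for controls 1 to 3 and 0.166 to 0.274 for the knockouts. Results that rest on this array are given with and without it. The level of Dicer1 and markers of cell types, including those of the dorsal telencephalon itself, could not be named in the table and were not analysed here. In these tissue samples fewer cells of a type and less RNA per cell cannot be told apart.

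RefSeq (GRCm38.p6) places microRNAs inside some of these genes, and Dicer acts on their hairpins once these are cut from the host transcripts. Hairpins are listed inside 4 of the 9 genes. Inside Meg3 only Mir770 is listed as a hairpin, so none is printed for miR-1906. They are printed 5′ to 3′ with the mature arms in capitals, so that the loop between the arms stands in lower case.
Mir675 in H19, chr7:142577064-142577147, minus strand: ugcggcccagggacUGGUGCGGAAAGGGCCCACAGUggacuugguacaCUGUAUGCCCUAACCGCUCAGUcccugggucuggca
Mir483 in Igf2, chr7:142654924-142654996, minus strand: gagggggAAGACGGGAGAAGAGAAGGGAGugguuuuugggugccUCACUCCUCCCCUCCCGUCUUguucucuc
Mir770 in Meg3, chr12:109563692-109563785, plus strand: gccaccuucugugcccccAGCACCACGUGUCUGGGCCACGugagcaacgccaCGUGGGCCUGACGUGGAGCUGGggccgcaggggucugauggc
Mir335 in Mest, chr6:30741299-30741396, plus strand: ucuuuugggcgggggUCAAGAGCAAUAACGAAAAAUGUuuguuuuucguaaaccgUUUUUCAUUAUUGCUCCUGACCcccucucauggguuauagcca
The arms are separated by 12 bases in Mir675 and Mir770, 15 bases in Mir483 and 17 bases in Mir335.

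The mature microRNAs of these hosts are given with the seed, bases 2 to 8 from the 5′ end, in capitals, because the seed sets which transcripts a microRNA pairs with.
miR-675-5p (H19): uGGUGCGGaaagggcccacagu
miR-675-3p (H19): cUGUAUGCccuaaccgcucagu
miR-483-5p (Igf2): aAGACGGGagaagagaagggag
miR-483-3p (Igf2): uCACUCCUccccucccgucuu
miR-770-5p (Meg3): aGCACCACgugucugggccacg
miR-770-3p (Meg3): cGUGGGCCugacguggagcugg
miR-1906 (Meg3): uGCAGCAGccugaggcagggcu
miR-335-5p (Mest): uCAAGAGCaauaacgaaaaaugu
miR-335-3p (Mest): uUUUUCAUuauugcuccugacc
The 9 mature sequences have 9 different seeds, and none of these seeds occurs under another name among the 1738 mature mouse entries of the same table. Meg3 is also the first transcript of a longer maternally expressed microRNA cluster, and 53 further hairpins are listed on its strand within 250 kb downstream. The arrays measured the host genes and not the microRNAs, whose levels were not analysed here.

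The comparison of knockout with control embryos asked whether the transcripts of imprinted genes differ in Dicer knockouts. Of the 9 genes, Meg3 alone passed the test, as 1 gene higher in the knockout. Over the whole table, 11% of the genes were called higher and 24.6% were called in either direction (limma, Benjamini-Hochberg adjusted p under 0.05, two-sided). Meg3 was also the only one of the 9 whose knockout values all lay on one side of the control values, where 9.99% of all genes had every knockout above every control. A share of 1 in 9 is close to that called higher over all genes. The median log2 change of the 9 genes was 0.076, against -0.016 over all genes. The median of the 9 moved with single controls, to 0.18 without control 4 and 0.021 without control 3, and against control males it was 0.0077.

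Meg3 is a long non-coding RNA transcribed from the maternal copy of the Dlk1 to Dio3 cluster. Its log2 values were 7.87, 7.36, 7.95, 7.61 and 7.77 in knockouts 5, 7, 9, 10 and 11, against 6.49, 6.93, 6.60 and 7.08 in controls 1 to 4. The groups did not overlap, and 0.27 log2 units separated the lowest knockout, replicate 7, from the highest control, replicate 4. Knockouts averaged 7.71 ± 0.235 (SD, n = 5), against 6.78 ± 0.28 (SD, n = 4) for controls. Meg3 rose by 0.93 log2 units (SE 0.15, 95% confidence interval 0.60 to 1.27), or 1.91-fold (limma adjusted p = 0.00288). It was the 86th largest rise among the 12188 genes. All 4 control values of Meg3 lay below the array medians of 7.61 to 7.75, and Meg3 was among the dimmest 50% of genes. An exact permutation test over the 126 splits of the arrays, two-sided and unadjusted, gave p = 0.00794, the smallest it can give.

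**Figure D1:**
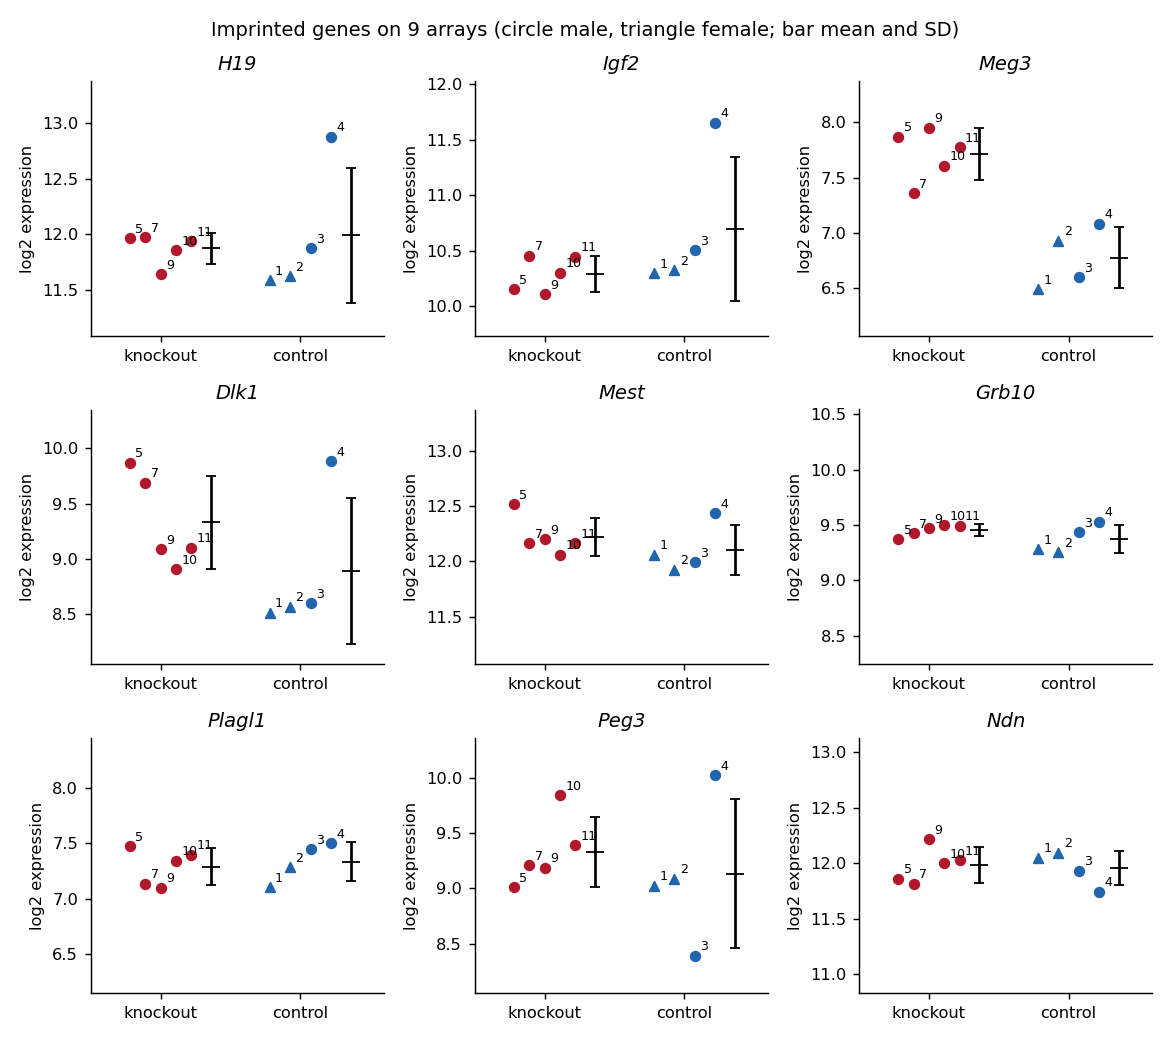
Log2 expression of the 9 imprinted genes on each array, with knockouts left of controls, numbers for replicates, circles for embryos labelled male, triangles for those labelled female, and bars for the mean and SD of each group. Every panel spans the same log2 range. The knockout values of Meg3, 7.36 to 7.95, lie above all controls, and control 4 is the highest control for every gene except Ndn.

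Because every knockout was labelled male, Meg3 was also compared with the controls labelled male in a limma fit of 3 groups. In this contrast, in which 10.5% of all genes were called, Meg3 was 1 of 9 called, at 0.87 log2 units (SE 0.19, limma adjusted p = 0.0315). The call was close to the threshold. Without knockout 9, 10 or 11 the limma adjusted p was 0.055, 0.0567 and 0.0683, and without control 1 or control 2 it was 0.0505. Without control 3 it was 0.0884 and without control 4 it was 0.0654, with a single control male left in each of these fits. The log2 change in those leave-one-out fits lay between 0.63 and 1.11. Calls over the whole table fell as well without knockout 9, 10 and 11, from 1285 genes to 496, 425 and 253. They did not fall in every such fit, and without control 3 they rose while Meg3 was not called. Among the controls themselves, the labelled females had 6.49 and 6.93 and the labelled males 6.60 and 7.08, so the sexes overlapped at Meg3.

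Dlk1, a transmembrane protein with epidermal growth factor repeats related to the Notch ligands, is the paternally expressed neighbour of Meg3. Its log2 values were 9.87, 9.69, 9.09, 8.91 and 9.10 in knockouts 5, 7, 9, 10 and 11, against 8.51, 8.57, 8.60 and 9.88 in controls 1 to 4. All 5 knockouts were above controls 1 to 3, and all 5 were below control 4. With all 4 controls, knockouts averaged 9.33 ± 0.42 (SD, n = 5), against 8.89 ± 0.66 (SD, n = 4) for controls, and the log2 change of 0.44 (SE 0.30) did not pass the test (limma adjusted p = 0.332). Without control 4 the knockouts and controls did not overlap, and the log2 change was 0.77 (SE 0.20), or 1.70-fold (limma adjusted p = 0.0203). In that fit 2 of the 9 genes, Meg3 and Dlk1, were called, against 26.8% of all genes, and 14.2% of all genes had every knockout above every control. Against the control males 3 and 4 alone, the log2 change of Dlk1 was 0.089 (SE 0.35, limma adjusted p = 0.888). It was 0.73 (limma adjusted p = 0.235) with control 4 left out of that fit and -0.55 (limma adjusted p = 0.272) with control 3 left out, so it depended on which control male was kept.

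Single arrays lay differently at the 2 neighbours, in size for control 4 and in direction for knockout 7. Control 4 lay 1.32 log2 units above the mean of controls 1 to 3 for Dlk1 and 0.41 above it for Meg3. Knockout 7 lay 0.45 log2 units above the mean of the other knockouts for Dlk1, while for Meg3 it lay 0.44 below. Knockout 7 was the lowest knockout at Meg3 and the next to highest at Dlk1. Over the 9 arrays Dlk1 and Meg3 had a Pearson's r of 0.518 (exact permutation p = 0.15, adjusted over the 36 pairs 0.389). Spearman's rho was 0.567 (exact permutation p = 0.121, adjusted 0.362). The Meg3 values did not overlap between the genotypes, so these values include the difference by genotype. For deviations from the group means r was 0.358.

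H19, the maternally expressed long non-coding RNA that carries miR-675, had log2 values of 11.96, 11.97, 11.64, 11.86 and 11.93 in knockouts 5, 7, 9, 10 and 11, against 11.58, 11.62, 11.87 and 12.88 in controls 1 to 4. The groups overlapped, and control 4 was 0.91 log2 units above the highest knockout. Knockouts averaged 11.87 ± 0.14 (SD, n = 5), against 11.99 ± 0.61 (SD, n = 4) for controls. The log2 change was -0.12 (SE 0.23, 95% confidence interval -0.64 to 0.40, limma adjusted p = 0.762). Without control 4 it was 0.18 (SE 0.10, limma adjusted p = 0.22), so the sign rested on this array and neither value passed the test.

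Igf2 encodes an insulin-like growth factor, a ligand of the type 1 receptor and a main driver of growth before birth. It lies beside H19 and is expressed from the paternal copy in most tissues but not in all. The values do not tell the parental copies of Igf2 apart. In the mouse brain it is best known from the choroid plexus, the meninges and vessels. Its log2 values were 10.15, 10.45, 10.11, 10.30 and 10.45 in knockouts 5, 7, 9, 10 and 11, against 10.30, 10.32, 10.50 and 11.65 in controls 1 to 4. Apart from control 4 the values of both groups lay within 0.40 log2 units of each other. Knockouts averaged 10.29 ± 0.16 (SD, n = 5), against 10.69 ± 0.65 (SD, n = 4) for controls. The log2 change was -0.40 (SE 0.25, 95% confidence interval -0.96 to 0.15, limma adjusted p = 0.279) with all controls and -0.083 (SE 0.10, limma adjusted p = 0.602) without control 4. Against the control males the log2 changes were -0.79 for Igf2 (limma adjusted p = 0.0721) and -0.50 for H19 (limma adjusted p = 0.158). With control 3 left out of that fit, and control 4 the only control male, they were -1.36 for Igf2 and -1.01 for H19. With control 4 left out instead, and control 3 the only control male, they were -0.21 for Igf2 and -0.0015 for H19. The values against the control males thus rested on control 4. A single control male gives no spread of its own, so these fits are given by log2 change alone.

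**Figure D2:**
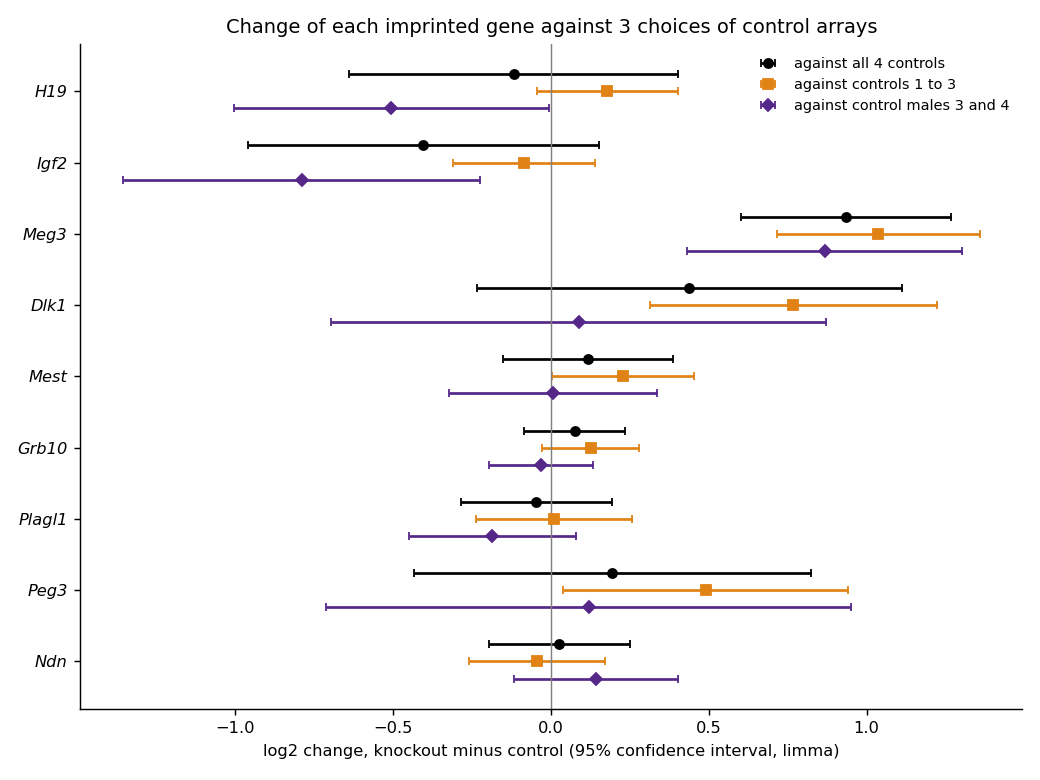
Log2 change of each imprinted gene, knockout minus control, with 95% confidence intervals from limma, against all 4 controls, against controls 1 to 3 and against the control males 3 and 4. The 3 intervals of Meg3 lie above 0. Those of Dlk1, H19 and Igf2 move with the choice of controls.

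Mest, which encodes a membrane protein with a hydrolase fold and is the host of miR-335, had log2 values of 12.52, 12.16, 12.20, 12.06 and 12.16 in knockouts 5, 7, 9, 10 and 11, against 12.06, 11.92, 11.99 and 12.43 in controls 1 to 4. Knockout 5 and control 4 were its highest arrays, and the groups overlapped. The log2 change was 0.12 (SE 0.12, 95% confidence interval -0.15 to 0.39, limma adjusted p = 0.526), and without control 4 it was 0.23 (limma adjusted p = 0.124).

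Grb10, an adaptor that binds the insulin and insulin-like growth factor receptors and dampens their signal, was the most even of the 9 genes within the knockout. Its values ranged from 9.37 to 9.50 in the 5 knockouts, against 9.25 to 9.53 in the 4 controls. The log2 change was 0.076 (SE 0.072, 95% confidence interval -0.085 to 0.24, limma adjusted p = 0.494). The interval leaves out a change of the size seen at Meg3.

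Peg3, a large zinc finger protein, had log2 values of 9.01, 9.21, 9.19, 9.84 and 9.39 in knockouts 5, 7, 9, 10 and 11, against 9.03, 9.09, 8.40 and 10.02 in controls 1 to 4. The controls spanned both the lowest and the highest value of all arrays, with control 3 lowest and control 4 highest. The log2 change was 0.20 (SE 0.28, 95% confidence interval -0.43 to 0.82, limma adjusted p = 0.663). Without control 4 it was 0.49 (limma adjusted p = 0.102), and without control 3 it was -0.051 (limma adjusted p = 0.908).

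Plagl1, a zinc finger transcription factor, and Ndn, which encodes Necdin, a protein of neurons that have left the cell cycle, showed the smallest changes. Plagl1 ranged from 7.10 to 7.47 in the knockouts, against 7.11 to 7.50 in the controls, with a log2 change of -0.045 (95% confidence interval -0.28 to 0.19, limma adjusted p = 0.801). Ndn ranged from 11.81 to 12.22 in the knockouts, against 11.74 to 12.09 in the controls, with a log2 change of 0.028 (95% confidence interval -0.20 to 0.25, limma adjusted p = 0.871). For both genes the intervals leave out changes as large as that of Meg3.

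The precision was uneven among the 9 genes. The standard errors of H19, Igf2, Dlk1 and Peg3 were 0.23 to 0.30 log2 units, and 96% to 98.6% of all genes had smaller ones. Their 95% confidence intervals, not adjusted for the number of genes, reached 0.52 to 0.67 log2 units to either side. Calls used the adjusted p, a stricter limit. Changes of that size or smaller, and somewhat larger ones, could thus go uncalled at these 4 genes with all 9 arrays. Without control 4 the standard error was 0.0997 for H19 and 0.101 for Igf2, with smaller ones at 61.1% and 62.4% of all genes. For Dlk1 and Peg3 it was 0.204 and 0.202, with smaller ones at 96.8% and 96.7% of all genes. Grb10 had a standard error of 0.072, and 19.4% of all genes had smaller ones.

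At Dlk1, Igf2, H19 and Peg3, control 4 lay at least 1 log2 unit above the mean of controls 1 to 3, a pattern looked for after the values were seen. The difference was 1.32 log2 units for Dlk1, 1.28 for Igf2, 1.19 for H19 and 1.18 for Peg3. Of the 9 imprinted genes, 4 were thus higher in control 4 by at least 1 log2 unit, against 2.63% of all genes, and none was lower by that much, against 1.04% of all genes. The other deviations were 0.44 for Mest, 0.41 for Meg3, 0.22 for Plagl1, 0.205 for Grb10 and -0.28 for Ndn. No other array differed from the mean of the others in its group by 1 log2 unit at any of the 9 genes. These counts set 1 array against 3 and have no test. Dixon's test for a single outlying sample among the 4 controls passed its 95% limit for Dlk1 and Igf2 and not for H19 or Peg3. What moves with these values in control 4 was not tested.

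**Figure D3:**
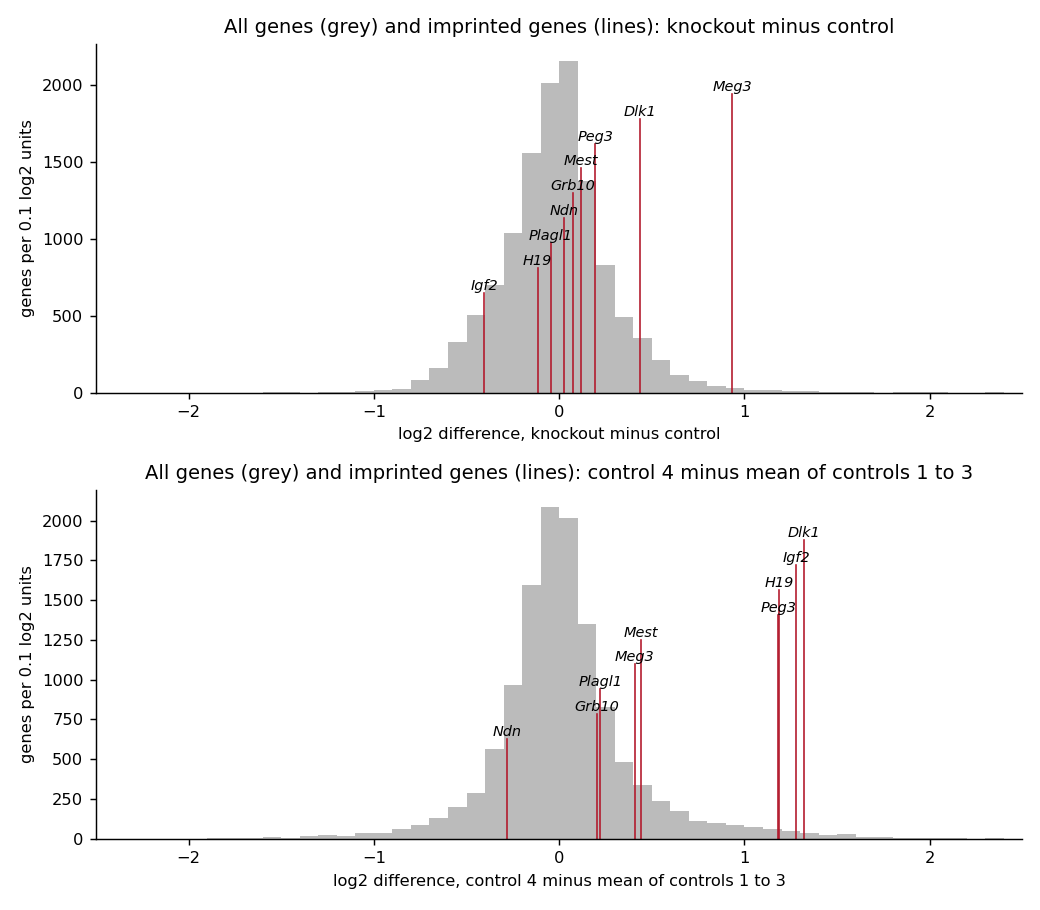
Number of genes per 0.1 log2 units (grey, 12188 genes) with the 9 imprinted genes as lines, for the difference between knockout and control (top) and between control 4 and the mean of controls 1 to 3 (bottom). The axis shows -2.5 to 2.5 log2 units. Meg3 lies in the upper tail of the top panel at 0.93, and Dlk1, Igf2, H19 and Peg3 lie between 1.18 and 1.32 in the bottom panel.

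Relations among the 9 genes were computed for all 36 pairs over the 9 arrays. H19 and Igf2, which share enhancers on the chromosome, had a Pearson's r of 0.925 (exact permutation p = 0.0177, adjusted over the pairs 0.159) and a Spearman's rho of 0.567 (exact permutation p = 0.121, adjusted 0.362). Without control 4 and control 1, the arrays farthest from the median of H19, r was 0.42. Without control 4 alone r was 0.392, so the relation rested on control 4. Dlk1 and Mest, which lie on different chromosomes, had r = 0.893 (exact permutation p = 0.00065, adjusted 0.0234) and rho = 0.828 (exact permutation p = 0.00829, adjusted 0.0995). Without control 4 and knockout 5, the arrays farthest from the median of Dlk1, r was 0.757. H19 and Dlk1 had r = 0.701 (exact permutation p = 0.00587, adjusted 0.0704) and rho = 0.917 (exact permutation p = 0.00131, adjusted 0.0472), with r = 0.61 without control 4 and control 1. No other pair passed an adjusted p under 0.05 by either measure. The permutations shuffled all 9 arrays together, so the values include any difference by genotype. For deviations from the group means r was 0.882 for Dlk1 and Mest and 0.855 for H19 and Dlk1. Within the genotypes, 5 knockouts and 4 controls are too few for a correlation of their own.

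**Figure D4:**
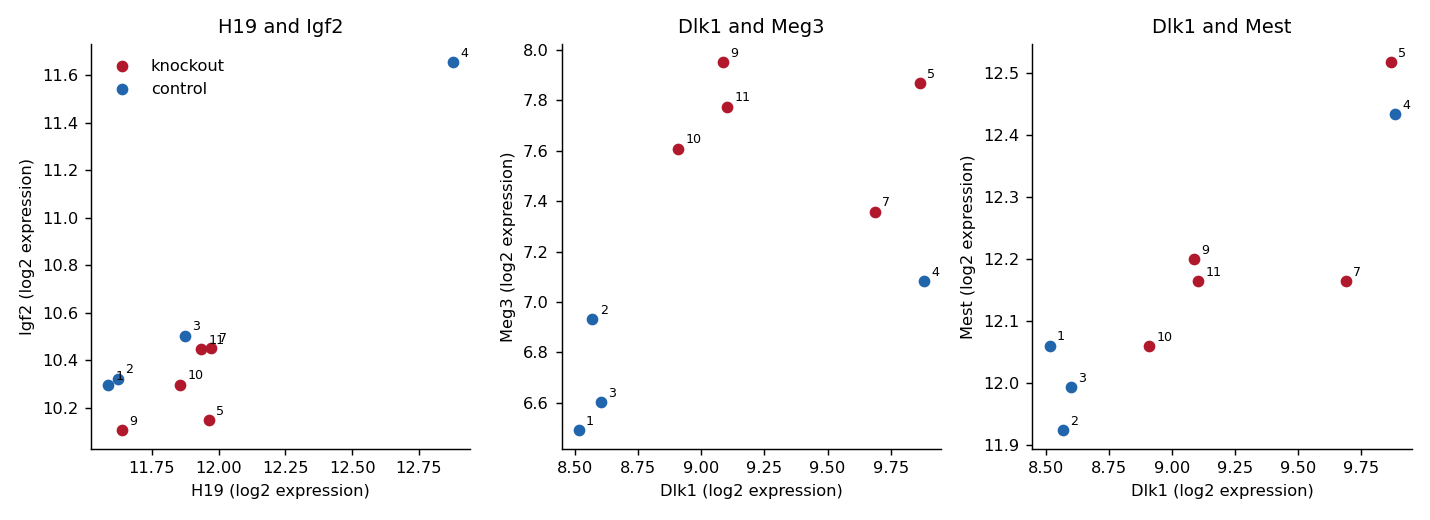
Log2 expression of 3 pairs of imprinted genes, 1 point per array with its replicate number, knockouts in red and controls in blue. In the left panel control 4 stands alone at 12.88 for H19 and 11.65 for Igf2. In the middle panel the knockouts lie above the controls in Meg3, and in the right panel Dlk1 and Mest are highest on knockout 5 and control 4.

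The genes of the whole table whose values were most like those of Meg3 over the 9 arrays, by Pearson's r, were ENSMUSG00000070047 (r = 0.986) and ENSMUSG00000036737 (r = 0.977), for which the table gives no symbol. Meg3 separates the genotypes, so a difference by genotype in these 2 genes follows from how they were picked and is no result. By deviations from the group means, ENSMUSG00000070047 was again the gene most like Meg3 (r = 0.938). For H19 and Igf2 the deviations from the group means had r = 0.971 with each other, which placed Igf2 48th for H19 among 12187 genes and H19 64th for Igf2. By the values themselves H19 and Igf2 ranked lower for each other. For Dlk1, Mest ranked 23rd by the values themselves and lower by deviations from the group means. These ranks are descriptions over 9 arrays that share the spread of control 4.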

How the data were processed

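The authors' deposited table holds log2 expression, already summarized to 1 value per gene and array for 12188 genes. Processing used the affy package, per the submitters' processing notes. Its version, the background correction, normalization, filter and annotation build are not given in the sources. Values ran from 2.72 to 14.1, and no identifier was repeated. Any 2 arrays shared the same value at no more than 254 genes.

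Symbols of the 9 genes come from the list that chose them. The RefSeq table filled 0 Ensembl identifiers for its 49997 genes, so planned lists of other imprinted genes, insulin-like growth factor pathway genes and cell type markers, and Dicer1, could not be matched. The naming rule took all 9 genes, and the 2 genes most like each, of which those for Meg3 are printed.

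Knockout was compared with control by limma 3.58.1 in R 4.3.3 (lmFit, eBayes) over all genes and 9 arrays, with Benjamini-Hochberg adjustment. A fit of 3 groups gave the contrast with control males. The fit was tested on simulated data. Correlations and figures used Python 3.11.15, numpy 2.4.6 and matplotlib 3.10.9. Members and lists were chosen with earlier results of these data known. Alternatives were scaling, a filter on dim genes, the spread model, array weights, sex, an exact test and leaving out arrays. Embryos were treated as independent.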

Additional observations from a re-analysis of the deposited data

Results flagged for a closer look

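By Dixon's test control 4 was an outlying control at 2 of the 9 genes. For Dlk1 its log2 value was 9.88, against 8.51 to 8.60 in controls 1 to 3, and the gap to the nearest control was 0.937 of the range of the group, past the 95% limit of Dixon's test for 4 samples. For Igf2 its value was 11.65, against 10.30 to 10.50 in controls 1 to 3, with a gap of 0.846 of the range. These were the 2 that passed among 18 groups examined (9 genes in 2 genotypes), and chance flags about 1 in 20. For H19 the gap was 0.776, for Mest 0.732 and for Peg3 0.572, under the limit.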

How the results depend on the processing

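The number of imprinted genes called between knockout and control was 1 with all arrays and 13 of 18 alternatives gave 1. It was 0 with the dimmest 50% of genes left out, where Meg3 and Plagl1 were themselves removed and 7 genes remained. Of all 6094 genes in that fit, 2465 were called. The count was also 0 with males only (Meg3 0.87, limma adjusted p = 0.0505), where 324 of 12188 genes were called. It was 3 with array weights, where Dlk1 (0.61, limma adjusted p = 0.0189) and Grb10 (0.16, limma adjusted p = 0.0424) joined Meg3 and 4562 of all genes were called. The count was 2 without control 4 and knockout 7 together, an alternative chosen after seeing the data, where 3326 of all genes were called. Leaving out each array in turn gave 1 to 2, where 1976 to 3263 of all genes were called. Meg3 kept its direction in every alternative that tested it, with log2 changes of 0.84 to 1.04 and limma adjusted p of 0.00161 to 0.0121 when single arrays were left out. Against control males the count was 1, with 1285 of all genes called. It was 0 with array weights (Meg3 0.89, limma adjusted p = 0.144), where only 29 of all 12188 genes were called. Leaving out single knockouts gave 0 to 1, where 253 to 1384 of all genes were called. Leaving out any single control also changed the count. Of the alternatives against control males, 7 gave 1 and 8 gave another count. With the dimmest 50% left out the 1 called gene was Igf2 (-0.79, limma adjusted p = 0.0457), and 1444 of 6094 genes were called. The causes of these moves were not tested.

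Meg3 and Igf2 kept their signs in every alternative run that tested them. The other 7 genes, none of which passed the test with all arrays, each turned sign in at least 1 alternative of at least 1 of the comparisons. With array weights the log2 change was 0.16 for H19, -0.0076 for Ndn and 0.034 for Plagl1, and against control males -0.027 for Dlk1 and -0.033 for Mest. Without control 4 and knockout 7 it was 0.15 for H19 and 0.049 for Plagl1, and against control males 0.023 for Grb10. Grb10 was at -0.031 with sex as a covariate and with males only, and against control males at 0.024 after quantile normalization and 0.011 after subtraction of array medians. When single arrays were left out, the changes ranged from -0.25 to 0.18 for H19, -0.043 to 0.074 for Ndn, -0.051 to 0.49 for Peg3 and -0.12 to 0.010 for Plagl1. Against control males they ranged from -0.55 to 0.73 for Dlk1, -0.078 to 0.016 for Grb10, -0.21 to 0.23 for Mest and -0.69 to 0.93 for Peg3. No paired analysis was possible because the groups share no replicate number. The alternatives for other imprinted genes and for insulin-like growth factor pathway genes were not run, since their genes could not be named. With 9 arrays and no detection call, signal over background of single genes is unknown.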

Other observations

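Ndn ran opposite to H19 across the arrays. Pearson's r was -0.787 (exact permutation p = 0.00406, adjusted over 36 pairs 0.0704) and Spearman's rho was -0.883 (exact permutation p = 0.00308, adjusted 0.0554), so neither passed the correction. Without control 4 and control 1, the arrays farthest from the median of H19, r was -0.863. Knockout 9 had the highest Ndn, 12.22, and the lowest H19 and Igf2 of the knockouts, 11.64 and 10.11. Control 4 had the lowest Ndn, 11.74, and the highest H19, 12.88.

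Within the knockout, Dlk1 divided the embryos more widely than the other imprinted genes did, with 9.87 and 9.69 in knockouts 5 and 7 and 8.91 to 9.10 in the other 3. Its SD of 0.42 was the largest of the 9 in the knockout, where Grb10 had the smallest, 0.05. The sources used here do not assign these embryos to litters.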
